A study of Mus musculus with 18 samples.

Results

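Colons of mice that had drunk dextran sulfate sodium (DSS, a polysaccharide that injures the colon lining) were compared after gavage with any of 3 preparations of Lactobacillus plantarum ZJ316 and after gavage without bacteria. The 12 libraries of gavaged mice were pooled and set against the 3 libraries labelled DSS, so that 15 of the 18 libraries of the series were used. The gavaged libraries were chosen by group only, 4 from the ZJ316 group (WT), 4 from ZJ316-KO (KO) and 4 from ZJ316-COM (COM). All mice were wild-type C57BL/6 males that drank 2.5% DSS for 7 days and were then gavaged for 5 weeks at 200 μL per 10 g of body weight. WT mice received the wild-type strain. The labels do not say what was altered in KO or what COM stands for. The DSS libraries were taken to be the group that the protocol gavages with PBS. That protocol divides the DSS-treated mice into more groups than it names. The 3 Control libraries came from mice that were fed normally without DSS, and their values are given only as a further point of reference. The labels do not tie libraries to animals, so p-values measure the spread between these libraries, which may in part be technical.

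Lactobacillus plantarum is a lactic acid bacterium of fermented food and of the gut. The colon wall holds a sheet of epithelium that renews itself from crypts, and under it a lamina propria with macrophages, lymphocytes and lymphoid follicles. Many colon genes follow the circadian clock, in which the activator pair of Arntl (Bmal1) with Clock or Npas2 turns on its own repressors, the Per, Cry and Nr1d genes, and output factors such as Dbp and Tef. Cells make cholesterol by the mevalonate pathway, whose genes are switched on together by the factor SREBP2 when sterol in the membranes is low.

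Levels are in FPKM, fragments scaled to transcript length and to the size of the library, a unit that keeps no read depth. Each of the 15 libraries listed 16610 to 16859 genes above 0. Epcam, a surface protein of gut epithelium, was at 754 to 907 FPKM in gavaged and 775 to 814 FPKM in DSS libraries. Other tissue was present in some libraries. The 18 pancreatic acinar genes made up 2.66% of all FPKM in KO3 and 0.106% to 0.262% in the other 11 gavaged libraries, against 7.25% in DSS1, 1.38% in DSS3 and 0.254% in DSS2. Each of the 18 acinar genes had a negative log2 fold change in gavaged against DSS libraries, and their median was -5.20. Of these 18 genes, 11 were at 0 in at least 1 library. Squamous epithelium genes averaged 2.88 on the log2(FPKM + 1) scale in COM3, 2.52 in WT2, 1.94 in WT4 and 1.77 in KO3, against 2.93 in DSS2 and 0.65 to 0.69 in DSS3 and DSS1. Hox genes of the distal gut averaged 2.32 in KO2 and 2.70 in DSS3, against 3.32 to 3.95 in the other gavaged libraries. DSS2 is thus the DSS library with little acinar RNA and much squamous RNA. It is the only DSS library left where the acinar-rich libraries DSS1, DSS3 and KO3 are taken out. The list of proximal gut and small intestine genes averaged 3.01 in COM2. It averaged 0.73 to 1.05 in the other gavaged and 0.82 to 1.56 in DSS libraries.

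Few genes passed the test over all 12 gavaged libraries. Of 13174 genes tested with limma on log2(FPKM + 1), 29 had a Benjamini-Hochberg adjusted p under 0.05 and were called, which is 0.22% of them. Of these, 17 were higher in gavaged mice (0.129%) and 12 were lower (0.0911%). Scaling to TPM gave 19 higher and 8 lower, and TPM without the acinar genes gave 10 higher and 14 lower. At an unadjusted p under 0.05 there were 736 higher genes (5.59%) and 1099 lower genes (8.34%). The median log2 fold change of all tested genes was -0.02. For 21 of the 29 called genes the 12 gavaged and 3 DSS libraries did not overlap, against 286 of all tested genes (2.17%), 109 of them higher (0.827%) and 177 lower (1.34%). Calls and overlap were taken from the same values, so they are not independent.

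The 29 called genes had the same sign in WT, KO and COM libraries, which share the 3 DSS libraries as reference. They were called on the mean of these 3 strain values, so equal signs follow in part from that choice. The WT value was nearest to 0 for 24 of the 29. A test of the difference between the 3 gavaged groups was passed by 543 of all genes (4.12%) and by 10 of the 29. Among these 10 were Dbp, Arntl, Nr1d2, Gsdmc2, Gsdmc4, Pla2g4c, Por, Cystm1 and Dynlt1b. The calls rest on few libraries: 0 genes were called without DSS1 (1471 at an unadjusted p under 0.05), 0 without DSS3 (1476) and 3 without DSS2, while 44 were called without KO2. Without the KO group 0 were called, without the COM group 1 and without the WT group 97.

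**Figure D1:**
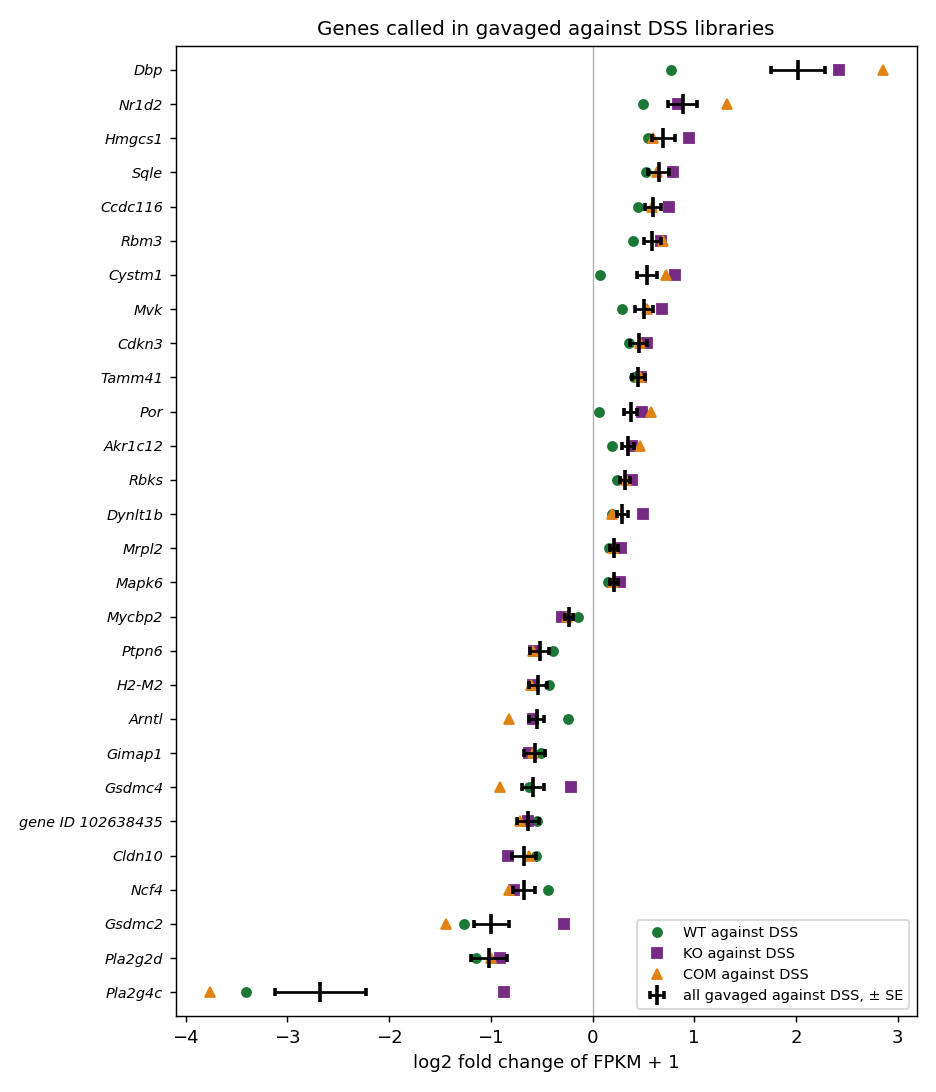
Log2 fold change of FPKM + 1 (x axis) for 28 of the called genes (y axis). Black bars give all 12 gavaged against 3 DSS libraries with the standard error, and coloured symbols the 4 WT, KO or COM libraries against the same 3 DSS libraries. Dbp at 2.02 and Pla2g4c at -2.68 lie farthest out, and for both the coloured symbols spread widely, from 0.77 to 2.85 for Dbp and from -3.76 to -0.87 for Pla2g4c.

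The largest rise among the called genes was that of a clock gene. Dbp, Nr1d2 and the cold-inducible Rbm3 rose in gavaged mice, and Arntl fell. Promoter windows of 2 clock genes, Tef and Nr1d2, and of a cholesterol gene are shown first, because members of both pathways are switched through short DNA elements. The windows are from RefSeq promoters of build GRCm38.p6 and are written 5′ to 3′ on the strand of the gene. Capitals mark the E-box CACGTG, to which Arntl and its partners bind, in Tef (chr15:81802501-81802596, plus strand, 127 bases before the start). In Nr1d2 (chr14:18239133-18239228, minus strand, 77 bases before the start) they mark AGGTCA, the core of the sites of Nr1d and Ror receptors. In Hmgcs1 (chr13:119690169-119690267, plus strand, 137 bases before the start), the first of the cholesterol genes described further on, they mark a match to TCACNCCAC, the form of the sterol regulatory element searched.
Tef: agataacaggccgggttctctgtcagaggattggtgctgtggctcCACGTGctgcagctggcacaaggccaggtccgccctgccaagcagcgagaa
Nr1d2: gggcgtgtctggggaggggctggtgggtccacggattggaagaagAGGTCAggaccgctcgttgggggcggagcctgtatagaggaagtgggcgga
Hmgcs1: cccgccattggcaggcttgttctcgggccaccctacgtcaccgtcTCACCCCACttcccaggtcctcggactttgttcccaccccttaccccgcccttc

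Each element was searched on both strands in windows of 250 bases before to 50 bases after the start. CACGTG was found in 6 of the 21 RefSeq promoters of 16 clock genes (promoters of Bhlhe41, Ciart, Cry1, Per1 and Tef) and in 7.15% of all 32851 promoters. AGGTCA was found in 5 of the 21 (promoters of Arntl, Clock, Nfil3, Nr1d2 and Per1) and in 16.3% of all. TCACNCCAC was found in 1 of the 17 promoters of 14 cholesterol genes, that of Hmgcs1, and in 1.24% of all. A match describes these letters only.

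Dbp (gene ID 13170, chromosome 7, 45705100 to 45710203), a transcription factor at the output of the clock, had 3.80, 3.20, 2.03 and 7.66 FPKM in WT libraries, 13.7, 11.4, 12.2 and 20.3 FPKM in KO libraries and 19.2, 24.3, 20.2 and 14.6 FPKM in COM libraries, against 1.63, 3.04 and 1.08 FPKM in DSS libraries. Of the 12 gavaged libraries, 11 were above every DSS library, and WT3 lay below DSS2. The mean was 12.7 ± 7.42 FPKM in gavaged (SD, n = 12) and 1.92 ± 1.01 FPKM in DSS libraries (SD, n = 3). The log2 fold change was 2.02 ± 0.26 (SE; limma adjusted p = 0.0204), with 0.77 in WT, 2.42 in KO and 2.85 in COM. Every KO and COM library was above every WT library, and the 3 gavaged groups differed (limma adjusted p = 0.0127). Control libraries had 1.01 to 1.48 FPKM.

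Nr1d2 (gene ID 353187, chromosome 14, 18204056 to 18239106), the nuclear receptor Rev-erbβ that represses Arntl, had 13.9, 11.6, 11.3 and 16.2 FPKM in WT, 18.9, 13.0, 18.1 and 18.7 FPKM in KO and 25.5, 23.9, 23.1 and 23.7 FPKM in COM libraries, against 9.03, 12.1 and 6.66 FPKM in DSS libraries. The COM libraries stood above all others, and WT2 and WT3 lay below DSS2. Its log2 fold change was 0.89 ± 0.14 (SE; limma adjusted p = 0.0319), with 0.50 in WT, 0.84 in KO and 1.32 in COM. Without the acinar-rich libraries DSS1, DSS3 and KO3, which leaves DSS2 as the only DSS library, it was 0.49. Nr1d1, its paralog Rev-erbα, had a similar profile but was not called: 34.7 to 80.0 FPKM in gavaged, 18.3 to 36.2 FPKM in DSS and 4.48 to 16.5 FPKM in Control libraries (log2 fold change 1.02 ± 0.20, limma adjusted p = 0.0566).

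Arntl (gene ID 11865, chromosome 7, 113178471 to 113314126), the activator at the centre of the clock, had 24.8, 25.1, 26.3 and 24.8 FPKM in WT, 19.1, 20.1, 21.0 and 19.0 FPKM in KO and 15.7, 13.5, 19.6 and 18.2 FPKM in COM libraries, against 30.8, 29.7 and 29.9 FPKM in DSS libraries. All 12 gavaged libraries were below all 3 DSS libraries, and every WT library was above every KO and COM library. That gave a log2 fold change of -0.55 ± 0.08 (SE; limma adjusted p = 0.0204), with -0.24 in WT, -0.58 in KO and -0.82 in COM, and the 3 gavaged groups differed (limma adjusted p = 0.0191). Control libraries ranged from 23.3 to 42.3 FPKM.

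The core oscillator list had 14 tested members, of which 1 was called higher (Nr1d2) and 1 lower (Arntl). Of all genes 0.129% were called higher and 0.0911% lower. At an unadjusted p under 0.05 there were 6 higher and 3 lower, against 5.59% and 8.34% of all genes. The median log2 fold change of the 14 members was 0.28, against -0.02 for all genes. It was 0.18 without DSS3 and 0.02 without the acinar-rich libraries, that is, against DSS2 alone. The list mean on the log2(FPKM + 1) scale was 3.05 to 3.48 in gavaged libraries, against 3.32 in DSS2, 3.14 in DSS1 and 3.12 in DSS3. Npas2, a partner of Arntl, had 10.1 to 23.8 FPKM in gavaged and 19.1 to 22.3 FPKM in DSS libraries (-0.40 ± 0.12, limma adjusted p = 0.144), with -0.03 in WT, -0.47 in KO and -0.71 in COM. The repressors Cry1 and Per3, named here after their values were seen, had log2 fold changes of -0.55 ± 0.16 and 0.39 ± 0.14 and were not called.

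The list of output factors had 5 tested members, of which 1 (Dbp) was called higher, against 0.129% of all genes. The list median was 0.44, and 0.18 without the acinar-rich libraries, again against DSS2 alone. The list mean was 2.17 to 3.19 in gavaged libraries, against 2.35 in DSS2, 2.09 in DSS1 and 2.01 in DSS3. Tef, a relative of Dbp, had 5.44 to 21.5 FPKM in gavaged and 4.09 to 7.46 FPKM in DSS libraries (log2 fold change 1.04 ± 0.20, limma adjusted p = 0.0566). Its strain values were 0.40 in WT, 1.10 in KO and 1.60 in COM. Nfil3, which binds the same sites as Dbp and represses them, had 2.10 to 7.13 FPKM in gavaged and 6.23 to 8.68 FPKM in DSS libraries (-0.90 ± 0.20, limma adjusted p = 0.0838), and 11 of the 12 gavaged libraries were below every DSS library. Hlf, a further relative of Dbp, had 0.71 to 2.13 FPKM in gavaged and 0.53 to 0.98 FPKM in DSS libraries. The sources used here give no hour of tissue collection.

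**Figure D2:**
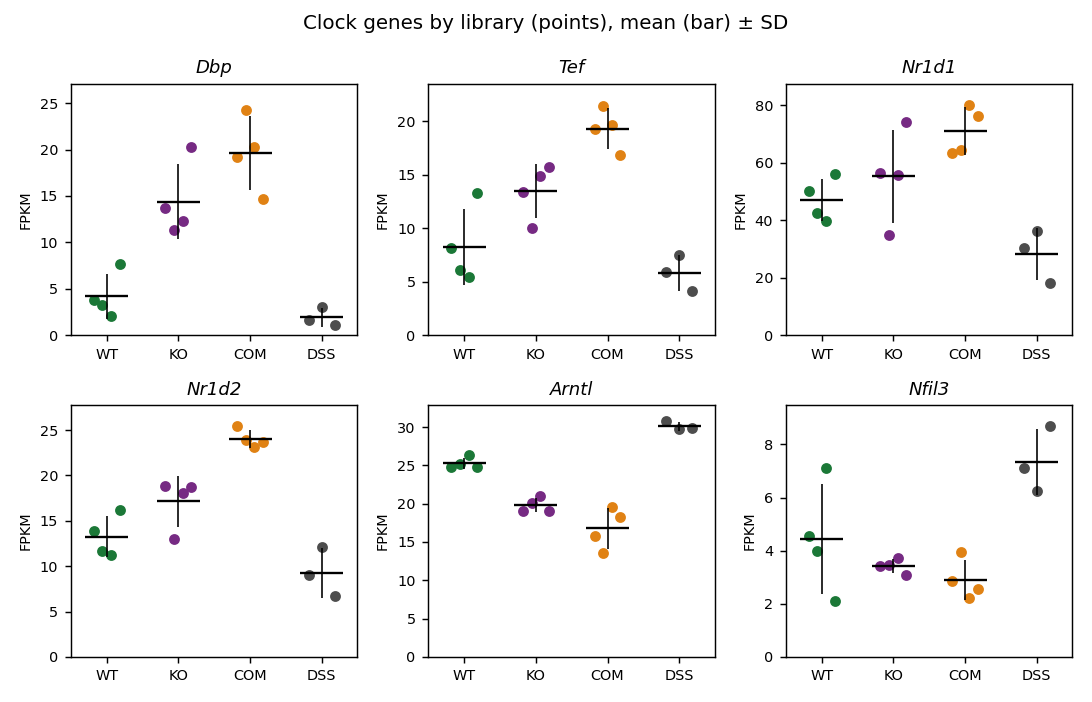
FPKM (y axis) of 6 clock genes in each library (points) of the WT, KO, COM and DSS groups, with the group mean (horizontal bar) and SD (vertical line). The means of Dbp, Tef and Nr1d2 are highest in COM, then in KO and WT, and lowest in DSS. Those of Arntl run the other way, with 16.8 FPKM in COM and 30.1 FPKM in DSS.

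Rbm3 (gene ID 19652, chromosome X, 8138975 to 8145880), an RNA-binding protein induced by mild cold, had 97.8, 98.9, 87.7 and 112 FPKM in WT, 117, 123, 117 and 120 FPKM in KO and 117, 137, 122 and 108 FPKM in COM libraries, against 68.8, 88.7 and 67.7 FPKM in DSS libraries. Only WT3 fell below the highest DSS library, DSS2. The log2 fold change was 0.59 ± 0.09 (SE; limma adjusted p = 0.0213), and 0.34 without the acinar-rich libraries, where DSS2 is the only DSS library. Its relative Cirbp had 15.1 to 25.5 FPKM in gavaged and 14.2 to 18.5 FPKM in DSS libraries and was not called (0.23 ± 0.10).

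Genes of cholesterol synthesis were higher as a list in gavaged mice, and 3 of them rose by the test. All 21 listed genes were tested and all 21 had a positive log2 fold change. The median was 0.44, against -0.02 for all genes. Hmgcs1, Sqle and Mvk were called (3 of 21, with 0.129% of all genes called higher). At an unadjusted p under 0.05, 19 were higher (5.59% of all genes were). For 7 the gavaged libraries were wholly above the DSS libraries (0.827% of all genes). The mean of the list on the log2(FPKM + 1) scale was 5.10 to 5.61 in gavaged and 4.82 to 4.98 in DSS libraries, with no overlap, and 4.54 to 5.43 in Control libraries. The lowest of the 15 libraries was a DSS library for 19 of the 21 genes, and KO2 was the highest for 12 of them.

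Hmgcs1 (gene ID 208715, chromosome 13, 119690351 to 119708260) makes the precursor that HMG-CoA reductase converts to mevalonate. It had 103, 135, 105 and 108 FPKM in WT, 140, 165, 140 and 151 FPKM in KO and 109, 135, 132 and 93.4 FPKM in COM libraries, against 75.4, 66.7 and 89.6 FPKM in DSS libraries. The lowest gavaged library, COM4, was above the highest DSS library, DSS3. Its log2 fold change was 0.69 ± 0.11 (SE; limma adjusted p = 0.0329), with 0.54 in WT, 0.95 in KO and 0.59 in COM.

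Sqle (gene ID 20775, chromosome 15, 59315092 to 59331193), the squalene epoxidase of the sterol branch, had 41.7, 57.3, 47.0 and 44.9 FPKM in WT, 54.4, 65.3, 54.7 and 55.9 FPKM in KO and 49.4, 60.5, 53.5 and 43.7 FPKM in COM libraries, against 33.7, 29.1 and 35.7 FPKM in DSS libraries. The log2 fold change was 0.65 ± 0.10 (SE; limma adjusted p = 0.0319) and the libraries did not overlap. Mvk (gene ID 17855, chromosome 5, 114444264 to 114460591), mevalonate kinase, had 12.8 to 22.7 FPKM in gavaged and 10.5 to 12.4 FPKM in DSS libraries, a log2 fold change of 0.50 ± 0.09 (limma adjusted p = 0.0377). Msmo1, a methylsterol oxidase further down the pathway, had 126 to 183 FPKM in gavaged and 93.5 to 116 FPKM in DSS libraries and narrowly missed the threshold (0.53 ± 0.10, limma adjusted p = 0.0548).

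Regulators of the pathway differed between the preparations and are named after their values were seen. Insig1, which holds SREBP in the endoplasmic reticulum, had strain values of 0.33 in WT, 0.48 in KO and -0.16 in COM. Srebf2, the gene of SREBP2, had 0.05 in WT, 0.28 in KO and 0.19 in COM. Both passed the test of a difference between the gavaged groups (limma adjusted p = 0.0264 for Insig1 and 0.0374 for Srebf2), as did 3 of the 21 genes in all. Of all tested genes 4.12% passed it. The list medians were 0.34 in WT, 0.53 in KO and 0.32 in COM.

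**Figure D3:**
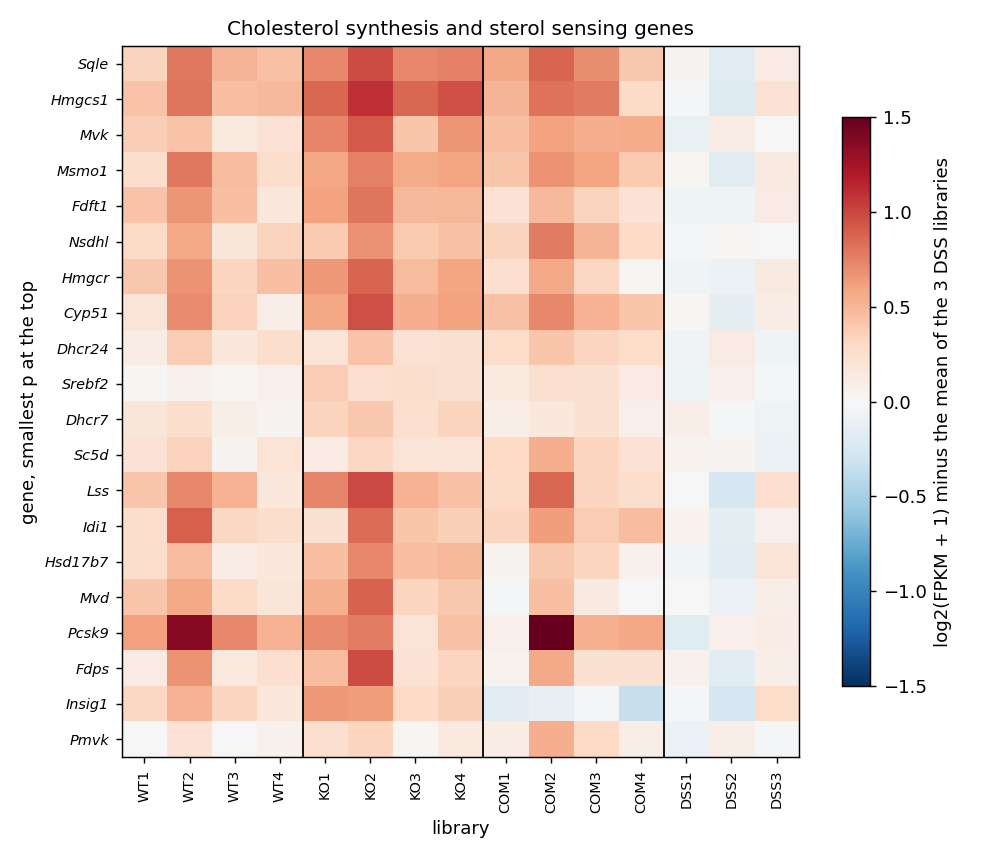
Log2(FPKM + 1) of 20 cholesterol genes (y axis) in 15 libraries (x axis), minus the mean of the 3 DSS libraries of each gene; red is higher and blue lower. Red prevails in all gavaged libraries, with the strongest colours in KO2, WT2 and COM2, and Insig1 is blue in COM libraries.

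Neighbouring parts of lipid and redox metabolism had no called member. All 16 tested genes of fatty acid oxidation had a positive log2 fold change (median 0.17). By limma 0 were called, and 7 passed an unadjusted p under 0.05 in that direction, against 5.59% of all genes. Slc25a20, the carnitine carrier of mitochondria, had 102 to 130 FPKM in gavaged and 85.6 to 96.4 FPKM in DSS libraries with no overlap (0.29 ± 0.07, limma adjusted p = 0.0875). Of the 10 genes under the oxidative stress factor Nrf2, 0 were called. At an unadjusted p under 0.05, 6 were higher and 1 was lower, against 5.59% and 8.34% of all genes. Nqo1, a quinone reductase, had 13.9 to 27.4 FPKM in gavaged and 9.38 to 17.4 FPKM in DSS libraries (0.59 ± 0.14, limma adjusted p = 0.0875).

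Por (gene ID 18984), the reductase that supplies electrons to cytochromes P450 and to squalene epoxidase, was called, with 38.8 to 67.7 FPKM in gavaged and 37.3 to 40.3 FPKM in DSS libraries (0.38 ± 0.06, limma adjusted p = 0.0377). Like Cystm1, a small membrane protein, it was called although its WT libraries overlapped the DSS libraries. The WT, KO and COM values were 0.07, 0.48 and 0.58 for Por and 0.07, 0.81 and 0.72 for Cystm1. Both differed between the gavaged groups (limma adjusted p = 0.0127). Every KO and COM library of these genes was above every DSS library.

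Among the called genes with close values in the 3 gavaged groups were Tamm41 and Ccdc116. Tamm41 (gene ID 68971, chromosome 6, 115004381 to 115037929), a mitochondrial enzyme on the way to cardiolipin, had 9.21 to 11.7 FPKM in gavaged and 6.96 to 7.72 FPKM in DSS libraries. Its log2 fold change was 0.45 ± 0.06 (limma adjusted p = 0.0204), with 0.41 in WT, 0.48 in KO and 0.46 in COM. Ccdc116 (gene ID 76872, chromosome 16, 17139064 to 17147802), a coiled-coil protein, had 6.01 to 9.78 FPKM in gavaged and 4.61 to 5.20 FPKM in DSS libraries (0.60 ± 0.08, limma adjusted p = 0.0204). Control libraries had 7.40 to 11.3 FPKM of Tamm41 and 3.86 to 4.94 FPKM of Ccdc116.

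The remaining called genes that were higher without overlap had log2 fold changes of 0.21 to 0.45. Rbks, the kinase that phosphorylates ribose, had a log2 fold change of 0.32 ± 0.05. Cdkn3, a phosphatase of the cell cycle, had 0.45 ± 0.08. Mapk6, an atypical MAP kinase, had 0.21 ± 0.04, and Mrpl2, a protein of the mitochondrial ribosome, had 0.21 ± 0.04. The values of Akr1c12, an aldo-keto reductase (0.35 ± 0.06), and Dynlt1b, a dynein light chain (0.29 ± 0.05), are less certain, since both have near-identical copies in the genome that can share reads.

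Genes of white blood cells were among those that fell. Ncf4 (gene ID 17972, chromosome 15, 78244164 to 78262582), a subunit of the phagocyte NADPH oxidase, had 5.04, 5.45, 7.15 and 6.54 FPKM in WT, 5.14, 4.04, 4.71 and 4.42 FPKM in KO and 3.47, 5.28, 4.76 and 4.21 FPKM in COM libraries, against 8.71, 7.35 and 9.55 FPKM in DSS libraries. All gavaged libraries were below all DSS libraries, and WT3 came nearest to them. This was a log2 fold change of -0.68 ± 0.11 (SE; limma adjusted p = 0.0319), and Control libraries had 0.78 to 4.55 FPKM.

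Ptpn6 (gene ID 15170, chromosome 6, 124720707 to 124738709), the phosphatase SHP-1 that restrains signalling in blood cells, had 15.6 to 23.2 FPKM in gavaged and 26.7 to 29.1 FPKM in DSS libraries (-0.52 ± 0.09, limma adjusted p = 0.0434). Gimap1 (gene ID 16205, chromosome 6, 48739047 to 48743795), a GTPase needed by lymphocytes, had 4.39 to 7.79 FPKM in gavaged and 8.51 to 9.51 FPKM in DSS libraries (-0.57 ± 0.10, limma adjusted p = 0.0434). Neither gene's groups overlapped, and the 3 strain values lay close together, from -0.58 to -0.39 for Ptpn6 and from -0.62 to -0.50 for Gimap1.

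H2-M2 (gene ID 14990, chromosome 17, 37480851 to 37483554), a non-classical class I histocompatibility gene, had 3.31 to 5.28 FPKM in gavaged and 6.25 to 7.38 FPKM in DSS libraries (-0.54 ± 0.09, limma adjusted p = 0.0319). Pla2g2d (gene ID 18782), a secreted phospholipase of dendritic cells and lymphoid tissue, had 0.97 to 2.90 FPKM in gavaged and 4.59 to 5.26 FPKM in DSS libraries (-1.02 ± 0.18, limma adjusted p = 0.0377); its level is low, and the naming rule leaves it out. Mycbp2, a ubiquitin ligase, had -0.23 ± 0.04 without overlap. The claudin gene Cldn10 and the ID 102638435, which matched no symbol, were called lower at means of 0.808 and 0.768 FPKM in gavaged and 1.89 and 1.74 FPKM in DSS libraries.

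B cell markers were lower in gavaged mice as a list, though none passed the adjusted test. Of 10 members 0 were called by limma, while all 10 were lower at an unadjusted p under 0.05 (8.34% of all genes were). Their median log2 fold change was -0.87, with -0.96 in WT, -0.78 in KO and -0.86 in COM. With acinar, squamous and Hox levels as covariates the median was -0.45. Without the acinar-rich libraries, and so against DSS2 alone, it was -0.77. The list mean on the log2(FPKM + 1) scale was 1.90 to 3.32 in gavaged and 3.34 to 3.65 in DSS libraries, so that KO3 and COM3 came near DSS2, and 0.42 to 3.18 in Control libraries. The acinar-rich libraries KO3 (3.32), DSS1 (3.54) and DSS3 (3.65) were among the 4 highest of the 15, beside DSS2 (3.34). Cd79b, a chain of the B cell receptor complex, had 7.89, 12.4, 21.4 and 16.6 FPKM in WT, 13.3, 9.81, 20.9 and 14.8 FPKM in KO and 9.44, 14.9, 19.8 and 10.3 FPKM in COM libraries, against 28.4, 25.0 and 30.8 FPKM in DSS libraries. Its log2 fold change was -0.98 ± 0.26 (limma adjusted p = 0.118). In bulk tissue, fewer B cells and less RNA per B cell cannot be told apart.

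Other follicle and B cell genes stood beside these. Cr2, the complement receptor of B cells and follicular dendritic cells, had 1.09 to 4.90 FPKM in gavaged and 4.79 to 6.59 FPKM in DSS libraries. Cxcl13, the chemokine that draws B cells into follicles, had 13.7 to 30.4 FPKM in gavaged and 31.2 to 44.7 FPKM in DSS libraries, with no overlap (-0.77 ± 0.18, limma adjusted p = 0.0875). It was picked from 19 tested chemokines with a median of -0.11, of which 0 were called. At an unadjusted p under 0.05, 1 of the 19 was lower (8.34% of all genes were). Lower without overlap was 1 of the 19, as were 1.34% of all genes. H2-Ob, a class II accessory chain found mainly in B cells, had 3.14 to 10.7 FPKM in gavaged and 10.5 to 13.3 FPKM in DSS libraries. The number of follicles in each piece of colon is not given in the sources used here.

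Plasma cell and macrophage markers had lower medians in KO and COM than in WT libraries. Of 8 plasma cell markers 0 were called by limma and 5 were lower at an unadjusted p under 0.05 (8.34% of all genes were). Their median was -0.54, made up of -0.11 in WT, -0.78 in KO and -0.65 in COM. Of the 8 genes 0 passed the test of a difference between the gavaged groups by limma. At an unadjusted p under 0.05, 7 did, as did 3468 of all 13174 genes. Of 11 tested macrophage markers 0 were called and 5 were lower at an unadjusted p under 0.05, with medians of 0.06 in WT, -0.60 in KO and -0.31 in COM. The median over all gavaged libraries was -0.31, with -0.16 without DSS2 and -0.58 without the acinar-rich libraries, where DSS2 is the only DSS library. Csf1r, the growth factor receptor of macrophages, had 7.21 to 17.2 FPKM in gavaged and 15.5 to 19.9 FPKM in DSS libraries (-0.47 ± 0.14, limma adjusted p = 0.159). Of the 11 macrophage genes 5 passed the test of a difference between the gavaged groups, as did 543 of all 13174 genes (4.12%). At an unadjusted p under 0.05, 10 of the 11 passed it, and 3468 of all genes.

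T and NK cell markers had 0 of 12 called by limma and 2 lower at an unadjusted p under 0.05 (median -0.12). Of all genes 8.34% were lower at that p. Class II presentation had 0 of 10 called and 4 lower at an unadjusted p under 0.05 (median -0.30). Of 7 tested neutrophil markers 0 were called and 0 passed an unadjusted p under 0.05, and the same held for the 5 tested colitis cytokines. S100a9, a calcium-binding protein of neutrophils, had 0.94 to 19.9 FPKM in gavaged and 2.19 to 15.8 FPKM in DSS libraries, with COM3 and DSS2 the highest of their groups. Il1b had 2.81 to 8.47 FPKM in gavaged and 3.97 to 8.91 FPKM in DSS libraries. Control libraries had 0.00 to 0.37 FPKM of S100a9 and 0.52 to 2.19 FPKM of Il1b.

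**Figure D4:**
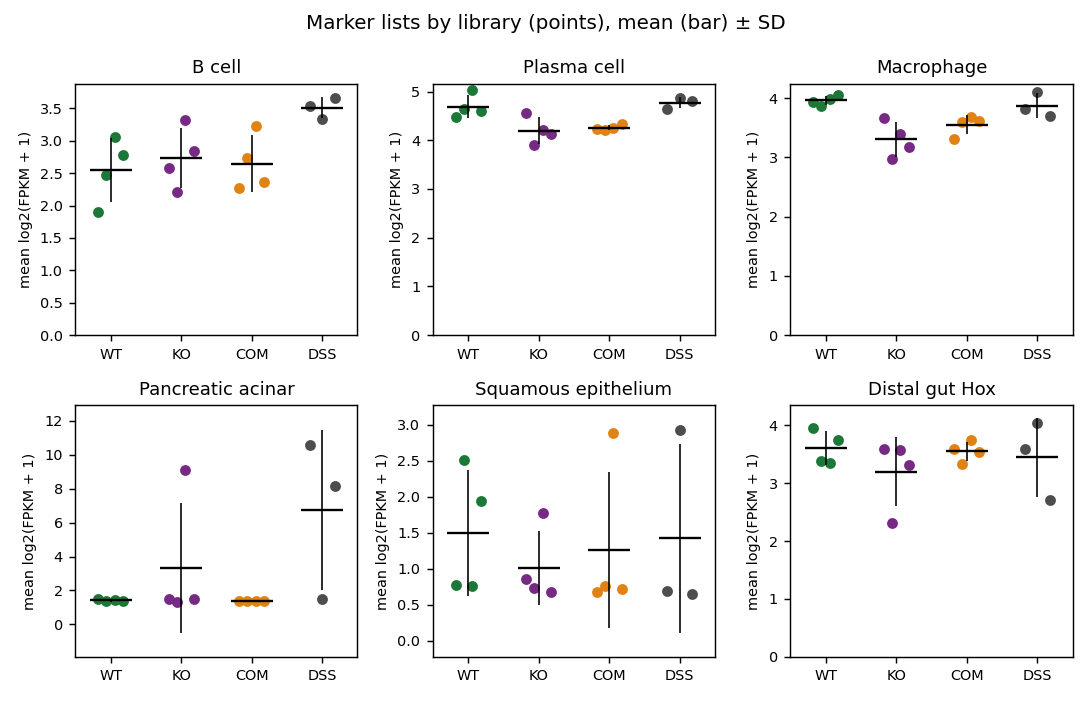
Mean log2(FPKM + 1) (y axis) of 6 marker lists in each library (points) of the WT, KO, COM and DSS groups, with the group mean (horizontal bar) and SD (vertical line). B cell markers lie below the DSS libraries in all 12 gavaged libraries, at 1.90 to 3.32 against 3.34 to 3.65. The lower row shows the libraries with acinar, squamous or low distal Hox signal.

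Among the genes called lower, Gsdmc2, Gsdmc4 and Pla2g4c were nearer to the DSS libraries in KO than in WT and COM libraries. Gsdmc2 (gene ID 331063, chromosome 15, 63824328 to 63845193) and Gsdmc4 (gene ID 74548, chromosome 15, 63891140 to 63912319) encode gasdermin C proteins, which form membrane pores and are made in gut epithelium. Gsdmc2 had 232, 362, 316 and 215 FPKM in WT, 491, 702, 497 and 516 FPKM in KO and 234, 236, 265 and 238 FPKM in COM libraries, against 641, 909 and 498 FPKM in DSS libraries. The KO libraries lay within or next to the DSS range, and all WT and COM libraries lay below it. This was a log2 fold change of -0.995 ± 0.172 (SE; limma adjusted p = 0.0377), with -1.26 in WT, -0.28 in KO and -1.44 in COM.

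Gsdmc4 had 538 to 933 FPKM in gavaged and 974 to 1147 FPKM in DSS libraries, with no overlap (-0.58 ± 0.11, limma adjusted p = 0.0477). Its strain values were -0.63 in WT, -0.21 in KO and -0.91 in COM. The gasdermin C genes are close copies, so reads can be split between them. Pla2g4c (gene ID 232889), a cytosolic phospholipase A2, had 0.41, 1.12, 5.02 and 0.43 FPKM in WT, 5.00, 25.7, 12.9 and 12.1 FPKM in KO and 0.99, 0.82, 0.76 and 0.49 FPKM in COM libraries, against 38.9, 12.2 and 24.7 FPKM in DSS libraries. Its log2 fold change was -2.68 ± 0.45 (SE; limma adjusted p = 0.0367), with -3.40 in WT, -0.87 in KO and -3.76 in COM. The 3 genes differed between the gavaged groups (limma adjusted p = 0.0191 for Gsdmc2, 0.0255 for Gsdmc4 and 0.0217 for Pla2g4c). In Control libraries Pla2g4c ranged from 0.63 to 37.5 FPKM and Gsdmc2 from 290.1 to 703 FPKM, so both varied widely without DSS too.

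Secreted antimicrobials had 0 of 11 tested members called by limma and 4 lower at an unadjusted p under 0.05 (8.34% of all genes were). The list median was -0.44. It was -0.78 without DSS2, -0.16 without the low-Hox libraries KO2 and DSS3, -0.70 with array weights and -0.12 without a filter on low values. The list mean on the log2(FPKM + 1) scale was 5.00 to 6.72 in gavaged libraries, against 5.66 in DSS2, 6.23 in DSS3 and 6.52 in DSS1. Ang4, an antimicrobial ribonuclease, had 77.5, 212, 311 and 141 FPKM in WT, 1009, 1392, 758 and 416 FPKM in KO and 84.8, 48.3, 131 and 103 FPKM in COM libraries, against 995, 792 and 639 FPKM in DSS libraries. The strain values were -2.27 in WT, 0.04 in KO and -3.19 in COM, and the 3 gavaged groups differed (limma adjusted p = 0.0127). The pooled value of -1.81 ± 0.39 (limma adjusted p = 0.0838) thus averages KO libraries at the DSS level with WT and COM libraries far below it. Itln1, a lectin that binds microbial sugars, had a like pattern at low levels, with -1.27 in WT, -0.12 in KO and -1.56 in COM. Lyz1, a lysozyme, had 11.1 to 24.1 FPKM in gavaged and 28.9 to 31.4 FPKM in DSS libraries, with no overlap and with strain values of -0.72 in WT, -0.82 in KO and -0.88 in COM (pooled -0.80 ± 0.17, limma adjusted p = 0.0684). Lyz1 and Lyz2 are close copies, and Lyz2, the form of macrophages, had 116 to 265 FPKM in gavaged and 276 to 291 FPKM in DSS libraries.

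Other epithelial lists had no called member. Of 13 tested goblet cell genes 0 were called by limma and 3 were lower at an unadjusted p under 0.05 (8.34% of all genes were). Their median was -0.12. Clca1, a secreted mucus protein, had 1184 to 3322 FPKM in gavaged and 2518 to 3253 FPKM in DSS libraries. Of the 12 gavaged libraries, 11 were below every DSS library and 1 was above every DSS library. Tight junction genes had 0 of 18 called and 0 at an unadjusted p under 0.05 (median 0.05). Absorptive colonocyte genes had 0 of 16 called and 3 higher at an unadjusted p under 0.05 (median 0.18). Of all genes 5.59% were higher at that p. The colonocyte list mean was 7.05 to 8.04 in gavaged libraries, against 7.04 in DSS2, 7.47 in DSS3 and 7.49 in DSS1. Car1, the carbonic anhydrase of the colon surface, reached 5102 FPKM in COM1 and 4136 FPKM in COM2, with 863 to 1498 FPKM in the other gavaged and 716 to 949.5 FPKM in DSS libraries. Proliferation genes had 0 of 18 called and 1 at an unadjusted p under 0.05 (median 0.00).

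Interferon-induced genes leaned upward without passing any test. All 20 tested members had a positive log2 fold change with a median of 0.34, 0 were called by limma and 0 passed an unadjusted p under 0.05. The median was 0.20 without DSS2, 0.18 without COM2, 0.16 without the squamous-rich libraries and 0.19 with array weights. COM2 and WT4 set the spread: the list mean on the log2(FPKM + 1) scale was 5.84 in COM2, 5.33 in WT4 and 3.84 to 4.47 in the other gavaged libraries, against 3.87 to 4.31 in DSS libraries. Isg15, a ubiquitin-like protein induced by interferon, had 115 FPKM in COM2 and 82.7 FPKM in WT4, against 12.3 to 24.8 FPKM in DSS libraries. COM2 also had the highest mean of the proximal gut and small intestine list, 3.01 against 0.73 to 1.05 in the other gavaged libraries. The histidine enzymes Hal, Uroc1, Amdhd1 and Ftcd stood out in COM2 as well, and which tissue these transcripts came from was not tested.

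The title of the series names purine and histidine metabolism of gut microbes, and the lists of mouse genes for these routes held no called gene. Of 19 tested genes of purine synthesis and salvage 0 were called by limma and 2 were higher at an unadjusted p under 0.05 (5.59% of all genes were). Their median was -0.02. Aprt, which salvages adenine, had 78.6 to 100.46 FPKM in gavaged and 69.3 to 76.8 FPKM in DSS libraries, with no overlap (0.22 ± 0.06, limma adjusted p = 0.135). Adk, which phosphorylates adenosine, had 51.4 to 84.4 FPKM in gavaged and 46.6 to 59.9 FPKM in DSS libraries (0.25 ± 0.10). Of 11 tested genes of purine breakdown 0 were called and 1 passed an unadjusted p under 0.05, the nucleotidase Nt5c2 (0.22 ± 0.07). Xdh, which makes uric acid, was among the members that did not pass.

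Of 16 tested genes for extracellular nucleotides and adenosine 0 were called by limma (median -0.07). At an unadjusted p under 0.05, 1 was higher and 2 were lower, against 5.59% and 8.34% of all genes. Entpd5, a nucleoside diphosphatase, had 0.23 ± 0.09. P2rx7, a channel opened by ATP, had -0.25 ± 0.10, and Slc28a2, a purine nucleoside carrier, had -0.40 ± 0.18. The histidine list had 7 tested members of 15, 0 called and 1 lower at an unadjusted p under 0.05, the mitochondrial histidine tRNA ligase Hars2 (-0.13 ± 0.06). Hal, the enzyme that starts histidine breakdown, did not reach the minimum of 1 FPKM in 3 libraries. It had 1.9 FPKM in COM2 and at most 0.24 FPKM in every other library. Uroc1, Amdhd1 and Ftcd of the same list had 1.5 to 2.09 FPKM in COM2 and at most 0.18 FPKM elsewhere. The list mean on the log2(FPKM + 1) scale was 2.11 in COM2 and at most 1.76 in the other gavaged libraries. The tissue behind these values was not tested.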

How the data were processed

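Per the labels' protocols, RNA came from the entire rinsed colon and was read on a DNBSEQ platform. For 18349 gene IDs and 18 libraries the authors deposited FPKM values, already scaled to library and transcript length. Build mm10 is named in the submitters' processing notes. Aligner, quantifier and annotation: not given in the sources used here. FPKM gives no read depth, so depth is unknown. Of the IDs, 18230 matched a symbol in the RefSeq table of GRCm38.p6, which gave coordinates. At most 2.51% of values were equal between any 2 libraries. Mitochondrially encoded genes and immunoglobulin and T cell receptor segments were not analysed here.

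Values were transformed to log2(FPKM + 1), a scale on which the change of low genes is understated. A gene entered the test if 3 or more of the 15 libraries had at least 1 FPKM. The fit was made with limma 3.58.1 (R 4.3.3), using moderated variances with a mean-variance trend and 4 group means. The contrast was the mean of WT, KO and COM minus DSS, two-sided, with calls at a p under 0.05 after Benjamini-Hochberg adjustment over all genes. An F test compared WT, KO and COM. The fit was tested on simulated data. The 51 gene lists got no test. Up to 12 called genes per direction were named whose libraries did not overlap and whose higher mean was at least 5 FPKM, leaving out predicted genes and unmatched IDs, and up to 4 members per list described, by call and then p. Other called genes were named after their values were seen. Some genes that the rules take are not reported here. Groups, members and lists were chosen with earlier results of these data known. Alternatives changed the pseudocount, filter, scaling, model, covariates, weights, replicate block and libraries used.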

Additional observations from a re-analysis of the deposited data

Results flagged for a closer look

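In 153 sets of 4 libraries of a gavaged group, 1 library stood apart from the other 3 by Dixon's criterion 14 times, and chance alone gives about 1 in 20. Sqle at 65.25 FPKM, Msmo1 at 178.88 FPKM, Gsdmc2 at 702.04 FPKM and Nr1d2 at 13.0 FPKM stood apart in KO2, the first 3 as the highest and Nr1d2 as the lowest KO library. The mean of the secreted antimicrobials on the log2(FPKM + 1) scale, 6.53, also stood apart in KO2, and so did, in WT2, Hmgcs1 at 134.55 FPKM and the cholesterol list mean at 5.49. In COM2 the low value of Ccdc116, 6.87 FPKM, and the small intestine list mean of 3.01 stood apart. In COM3 they were Gsdmc2 at 265.03 FPKM and Pax5 at 3.43 FPKM. Pla2g4c stood apart in WT3 at 5.02 FPKM, the interferon list mean in WT4 at 5.33 and the acinar list mean in KO3 at 9.09.

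Of the 42 genes examined, 13 differed between the 3 gavaged groups in the limma F test, against 543 of all tested genes (4.12%). The 42 were called genes and members picked from the lists by call and p, so they are no independent set. The adjusted p was 0.0127 for Dbp, Por, Cystm1 and Ang4, 0.0191 for Arntl and Gsdmc2, 0.0217 for Pla2g4c and 0.0254 for Dynlt1b. It was 0.0255 for Gsdmc4, 0.0287 for Npas2, 0.0288 for Tef, and 0.0291 for Nr1d2 and Itln1.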

How the results depend on the processing

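All called genes kept their direction under every alternative run, but 424 of 954 values for single genes stayed past the threshold and 530 did not. Direction could not change with all 18 libraries, with the gavaged libraries as 1 group, with a fold threshold or with other filters. Those settings leave the fold change as it was. Against 29 called genes, 2 (Ccdc116 and Dbp) were called with all 18 libraries in the fit, 1 (Tamm41) with the 12 gavaged libraries as 1 group, 1 (Nr1d2) with acinar, squamous and Hox levels as covariates, and 3 (Dbp, Pla2g2d and Pla2g4c) when a log2 fold change of 1 or more in size was also required. Array weights gave 549. Without the low-Hox libraries 0 were called (1536 at an unadjusted p under 0.05). Without the acinar-rich libraries DSS2 alone stood for the DSS group, so only fold changes are given for gavaged against DSS in that fit. Without the squamous-rich libraries 37 were called, 5 higher and 32 lower, of which 6 were among the 29. Leaving out 1 library at a time gave 0 to 44, with 6 without WT1, 4 without KO4, 7 without COM1, 10 without KO1 or COM4 and 14 without COM3. In fits added after seeing the data, 97 were called without the WT group, 0 without the KO group (1529 at an unadjusted p under 0.05) and 1 without the COM group. The count of genes that differed between the strains, 543, was 331 without a filter on low values, 16 with all 18 libraries, 200 with the covariates, 1321 with array weights, 0 without the acinar-rich (3071 at an unadjusted p under 0.05) or the squamous-rich libraries (1932) and 141 without the low-Hox libraries. Leaving out 1 library at a time gave 23 to 654 for it: 25 without WT2, 23 without WT3, 70 without WT1, 239 to 267 without KO2, KO3 or KO4, 288 without DSS1 and 344 without COM1. The cause was not tested. Of 297 list medians 295 moved by less than the SD of the list mean over the 12 gavaged libraries. That SD takes in differences between the strains, and even the B cell median of -0.45 with covariates, against -0.87, fell within it. The medians that moved more were the clock output list at a pseudocount of 0.1 (0.83) and the core clock list without the acinar-rich libraries (0.02).

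Replicate numbers did not pair the libraries: the correlation of same-numbered libraries ran from -0.48 to 0.40 over 21 pairs, 10 of them over 0.1, and 2 of 15 libraries correlated best with their own number. With the number as a replicate block 35 genes were called, 17 of them among the 29, and 27 genes differed between the strains.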
